A study of Mus musculus with 9 samples.

Results

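The comparison described here sets mouse CD8+ T cells given OVA peptide together with citraconate against control cells without the peptide. It was chosen by its labels and not by any measured value: it takes 6 of the 9 RNA-seq libraries of the series, 3 per group, and every gene whose mean in either group reached 1 TPM, which were 11734 of the 48709 genes in the table. TPM expresses a gene's transcripts relative to a fixed library total, and values are given as mean ± SD over 3 libraries or library by library in the order of replicates 1, 2 and 3. OVA peptide, cut from chicken ovalbumin, serves as the antigen, and citraconate is an unsaturated dicarboxylic acid that differs from itaconate in the place of its double bond. The other 3 libraries, cells given OVA peptide alone, were fitted in the same model and are set beside the results where they help to place them. Cells with citraconate alone were not analysed here, so the separate parts of peptide and citraconate in any difference from control cannot be told apart in this comparison. The sources used here give no dose, time, mouse strain or age. Whether a replicate is a culture or an animal of its own is not stated, so the spread that p-values measure, between these samples alone, may be technical. The control is labelled only as lacking the peptide. It was not a resting population by its transcripts: Gzmb, which encodes granzyme B, stood at 7088, 8199 and 7818 TPM, and the proliferation gene Mki67 at 332, 309.7 and 255 TPM, in its 3 libraries.

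A CD8+ T cell recognises a short peptide on an MHC class I molecule through its T cell receptor. Recognition starts a kinase cascade that ends in calcium, MAP kinase and NF-kB signals, and these switch on early response factors, cytokines and the granule proteins that kill the target. Cells that are driven far along this path lose the transcription factors and homing receptors of stem-like and memory T cells, and cells that keep receiving the signal raise inhibitory receptors such as PD-1 and TIM-3. The series is about citraconate and the stem-like state of CD8+ T cells, and the comparison with control asks how far cells given peptide and citraconate stood from cells without the peptide.

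Each library held 14754470 to 17384330 reads assigned to genes, as recovered from the table, and 14537 to 15111 genes were above 0 in each. T cell markers were present in every library. The summed level of 17 of them was 11962 to 12635 TPM in control and 11406 to 12588 TPM with OVA plus citraconate (exact permutation p = 0.7, two-sided). With OVA alone the sum was 6018 to 7955 TPM. Of the 17 markers, 4 were called higher and 4 lower with OVA plus citraconate than in control, which the sum does not show. On the first principal component, with 68.9% of the variance, the control libraries scored from -64.3 to -61.4, the OVA plus citraconate libraries 7.94 to 21.3 and the OVA libraries 44.6 to 55.7. The second component, with 23.9%, put the OVA plus citraconate libraries at -40.6 to -32.7, below control (11.3 to 13.4) and OVA (13.9 to 38.3). Within its group OVA plus citraconate replicate 2 stood apart, with the highest granzyme levels and the lowest levels of Tcf7, Id3 and Ccr7. Some of the values it touches are given with and without it. Without it the log2 difference from control was 2.24 for Ccr7, -0.085 for Id3, 4.545 for Csf2 and 1.116 for Gzmb. The granzymes then took 3.26% of transcripts, ribosomal proteins 16.97% and mitochondrially encoded genes 9.39%. OVA replicate 2 was also the highest of its group in Gzme (9359 TPM), though not in Gzmb. It was the lowest in Tcf7, Id3 and Ccr7 (1.37, 0.959 and 20.1 TPM). Control replicate 2 was the lowest of its group in Tcf7 and Ccr7 (47.3 and 33.3 TPM), but not in Id3. The cause was not tested. The extract protocol of OVA plus citraconate replicate 1 speaks of OVA-stimulated T cells. That of the other 8 libraries, controls included, speaks of PAS-T cells, a term the labels do not define. On both components OVA plus citraconate replicate 1 lay beside replicate 3 of its group.

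The cells given OVA plus citraconate had left the control state across a large part of the transcriptome. Of 11734 genes, 7069 (60.2%) passed an adjusted p of 0.05 in limma, with 3925 (33.4%) higher and 3144 (26.8%) lower. These shares are the background for the counts of every gene list below. The libraries of both groups did not overlap for 7959 genes (67.8%). Most of these differences were small: 3786 of the called genes, or 53.6%, differed by less than 1.5-fold, and 1523 (13.0% of the genes tested) differed at least 2-fold, 827 upward and 696 downward. At 4-fold or more the counts were 257 and 158. The median log2 difference of all genes was 0.036, and the median size of the difference was 0.339. Without OVA plus citraconate replicate 2 the count of called genes was 6469, and without each of the other libraries it lay between 6313 and 7297. Set against OVA alone in the same fit, the OVA plus citraconate libraries gave 6874 called genes (58.6%). All log2 differences here are on log2(TPM + 1), which understates the change of genes with low values. The groups did not overlap in any gene that is given below library by library and called. In bulk RNA, fewer cells of a type and less of an RNA in each cell cannot be told apart.

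**Figure D1:**
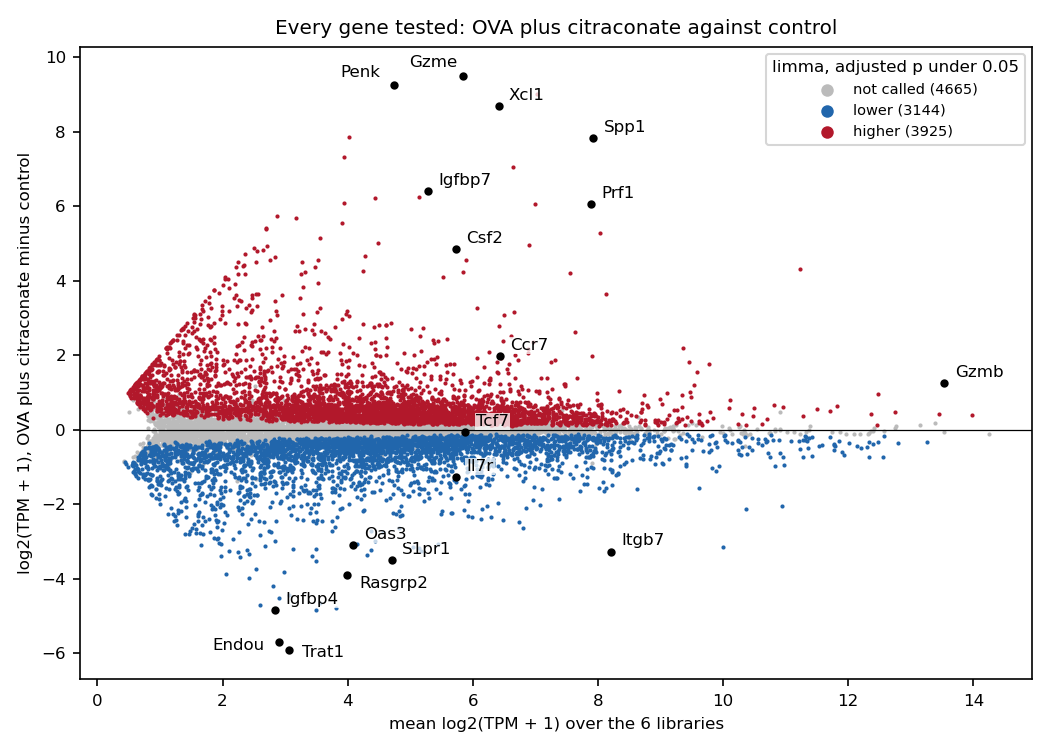
Each point is 1 of the 11734 genes tested, placed by its mean log2(TPM + 1) over the 6 libraries (x axis) and its log2 difference, OVA plus citraconate minus control (y axis), and coloured by its call in limma. The rises reach farther from 0 than the falls, with Gzme and Penk at the top and Trat1 and Endou at the bottom, while Tcf7 sits on the line of no difference.

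The largest increases were those of granule proteases and secreted proteins. Gzme, a granzyme of mouse killer cells, was at 0.562, 1.06 and 2.03 TPM in control and at 1277, 2392 and 1204 TPM with OVA plus citraconate (log2 difference 9.50, SE 0.28, adjusted p = 7.62e-09). Penk, which encodes the opioid peptide precursor proenkephalin, went from 0.106, 0 and 0.177 to 554, 789 and 656 TPM (log2 difference 9.24, SE 0.25, adjusted p = 4.15e-09), and OVA alone had 178 ± 70.3 TPM. Xcl1, a chemokine that draws cross-presenting dendritic cells, went from 4.96, 1.56 and 3.86 to 1919, 1427 and 1878 TPM (log2 difference 8.68, SE 0.42, adjusted p = 1.43e-07). These genes were barely detected in control and among the abundant transcripts in all 3 treated libraries. The same rule also named Gzmd, Gzmg and Gzmf, the protease inhibitor gene Serpinb9b, the chemokine gene Ccl9, and Tyrobp, the DAP12 adaptor gene. It further named Spp1 (osteopontin), which reached 2971, 4475 and 3692 TPM from 16.6, 14.6 and 14.3 TPM, Igfbp7, a secreted growth factor binding protein (3.303 ± 0.757 to 359.5 ± 36.3 TPM), and Crtam, an adhesion receptor of activated CD8+ T cells (3.04 ± 0.202 to 306 ± 28.5 TPM). How reads were divided among Gzmd, Gzme, Gzmf and Gzmg is uncertain, since they are near-identical copies.

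The largest decreases were of genes that control cells expressed at moderate levels and that were close to 0 after treatment. Trat1, an adaptor that associates with the T cell receptor, went from 68.97, 66.1 and 58.01 to 0, 0.246 and 0 TPM (log2 difference -5.92, SE 0.17, adjusted p = 5.27e-09). Endou, an endoribonuclease gene, went from 56.3, 47.4 and 54.4 to 0.0612, 0.06202 and 0 TPM (log2 difference -5.68, SE 0.14, adjusted p = 2.78e-09), and Igfbp4, another growth factor binding protein, from 58.1, 32.5 and 26.96 to 0.264, 0.4199 and 0.315 TPM (log2 difference -4.84, SE 0.23, adjusted p = 1.3e-07). All 3 were near 0 in each treated library. Zfp683, which encodes HOBIT, a factor of tissue-resident T cells, fell from 52.6, 64.6 and 57.1 to 1.58, 1.604 and 0.946 TPM. St6gal1, a sialyltransferase gene, fell from 74.2 ± 13.3 to 1.78 ± 0.979 TPM, and Rasgrp2, the activator of the small GTPase RAP1, from 60.2 ± 1.92 to 3.09 ± 0.0583 TPM. Tcrg-C1, Stac2, Itga7, Esm1, Ggt1 and Acvrl1 completed the 12, with log2 differences of -4.83, -4.70, -4.53, -4.43, -4.18 and -3.98. OVA alone also had low levels of most of these; the exception was Acvrl1, a receptor of the TGF-beta superfamily, at 13.02 ± 7.06 TPM with OVA beside 20.6 ± 3.76 in control and 0.3901 ± 0.382 TPM with OVA plus citraconate.

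Granule genes were higher as a group. Of 16 tested granzymes and granule proteases 10 were called higher, 1 lower and 5 not called; the median log2 difference was 1.14 beside 0.036 over all genes. Gzmb rose from 7088, 8199 and 7818 to 16273, 22240.5 and 17061 TPM (log2 difference 1.25, SE 0.11, adjusted p = 7.3e-06), a level at which OVA alone also stood (19445 ± 629.8 TPM). Gzmc, another granzyme of strongly stimulated cells, rose from 552 ± 128 to 10895 ± 2408 TPM, and Gzmk, linked to memory-like CD8+ cells, from 3.51 ± 2.33 to 15.1 ± 4.96 TPM. Gzma, a tryptase of killer cells, stood at 1248, 2043 and 1729 TPM in control and 1741, 3695 and 1799.9 TPM with treatment; the groups overlapped and it did not pass (adjusted p = 0.227, 95% interval of the log2 difference -0.24 to 1.17). Ctsw, a cathepsin of killer lymphocytes, fell from 358 ± 12.3 to 249 ± 30.2 TPM. All 10 granzymes together took 0.876 to 1.09% of transcripts in control libraries and 3.22 to 4.87% with OVA plus citraconate, where replicate 2 was the highest; the exact permutation test gave p = 0.1, the smallest that 3 against 3 allows.

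The release machinery and its safeguards moved with the proteases: 14 of 17 tested genes rose, 1 fell and 2 were not called (median 0.79). Prf1, which encodes the pore-forming perforin, rose from 26.2, 31.1 and 27.3 to 1632, 2663 and 1664 TPM (log2 difference 6.05, SE 0.18, adjusted p = 7.67e-09), without any overlap. OVA alone had 5047 ± 936 TPM. Serpinb9, the inhibitor that shields killer cells from their own granzyme B, rose from 12.2 ± 0.838 to 248 ± 35.8 TPM, and its relative Serpinb6b from 42.98 ± 3.96 to 806 ± 27.4 TPM. Stx11, a membrane fusion protein needed for granule release, rose from 19.8 ± 2.25 to 111 ± 5.88 TPM. Srgn, the proteoglycan that packs granules, stood at 535 ± 3.84 and 527 ± 14.98 TPM and did not pass (adjusted p = 0.676).

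**Figure D2:**
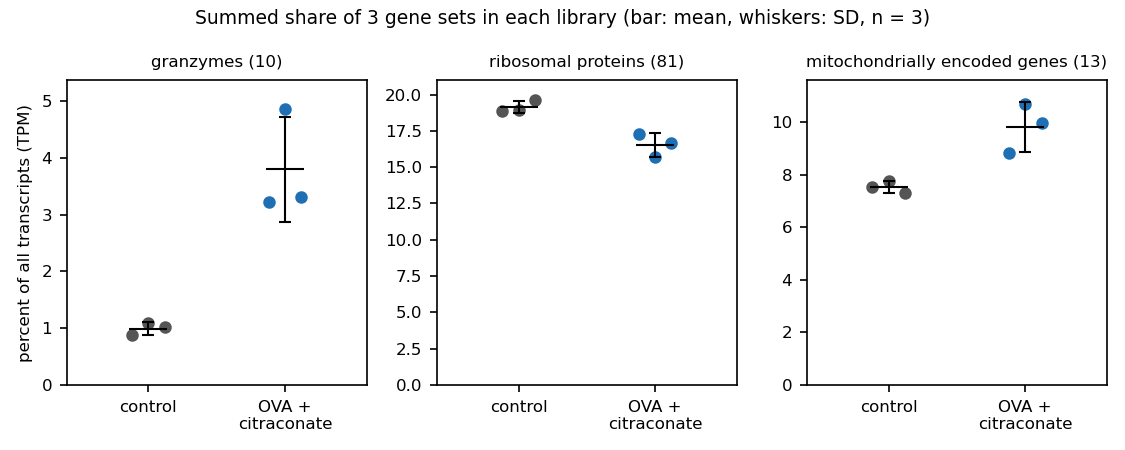
Percent of all transcripts (y axis, from summed TPM) taken by 3 gene sets in each of the 3 control and 3 OVA plus citraconate libraries. The granzyme share rose from 0.995% to 3.80% on average, the ribosomal protein share was 19.1% and 16.5%, the mitochondrially encoded share 7.53% and 9.83%, and in none of the 3 sets did the groups overlap.

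Most tested chemokines were higher, 7 of 9 against 0 lower, and the median log2 difference was 4.95 (4.68 without OVA plus citraconate replicate 2). It was 3.21 with a pseudocount of 5, and 1.83 with no filter on low values, where low members enter. Ccl3 and Ccl4, inflammatory chemokines that killer cells secrete on contact, rose from 40.4, 37.9 and 45.96 to 1286, 2323 and 1443 TPM and from 19.1, 17.3 and 25.8 to 532, 952 and 569.8 TPM. In both genes replicate 2 was the highest of the treated libraries, and every treated library was far above every control library. Ccl5, the related chemokine that is stored in CD8+ cells, rose from 381 ± 94.4 to 1386 ± 536 TPM, above the 556 ± 211 TPM of OVA alone. Ccl9 rose from 0.231 ± 0.149 to 206 ± 87.3 TPM, and Ccl1, the CCR8 ligand, was listed at 0 in all 3 control libraries and at 30.4, 53.2 and 43.5 TPM with treatment. Cxcl10 and Ccl25 did not pass, at 1.56 and 1.44 TPM in control and 2.73 and 1.54 TPM with treatment.

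Among cytokines and death ligands 13 of 19 rose, 5 fell and 1 did not pass (median 1.26). Csf2, which encodes GM-CSF, was at 10.2, 6.53 and 10.6 TPM in control, 243, 423 and 219 TPM with OVA plus citraconate and 32.9, 30.8 and 62.7 TPM with OVA alone. Control and treated libraries did not overlap (log2 difference 4.84, SE 0.31, adjusted p = 7.78e-07). Ifng, the main activating cytokine of killer cells, rose from 68.4, 82.3 and 86.2 to 424, 619 and 447 TPM (log2 difference 2.62, SE 0.23, adjusted p = 6.08e-06). Csf1, a growth factor of macrophages, rose from 1.603 ± 0.283 to 35.9 ± 3.63 TPM, and the RANK ligand gene Tnfsf11 from 4.48 ± 1.48 to 34.97 ± 1.53 TPM. Both death ligand genes rose: Tnfsf10 (TRAIL) from 13.9 ± 1.12 to 83.98 ± 2.57 TPM and Fasl from 19.5 ± 3.06 to 45.9 ± 2.74 TPM. The members that fell included Ltb, a lymphotoxin subunit that organises lymphoid tissue (478 ± 28.99 to 218 ± 47.6 TPM), Il16 (30.4 ± 1.37 to 12.2 ± 1.39 TPM) and Il24 (7.69 ± 3.74 to 0.196 ± 0.06605 TPM). Il2, Il4, Il5 and Il21 were below 1 TPM in both groups and were not tested.

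Receptors and adaptors shared with natural killer cells were higher in 23 of 29 tested genes and lower in 5, with a median of 1.87. Tyrobp, through which activating receptors of natural killer cells signal, rose from 0.777, 0.734 and 1.08 to 106, 180.4 and 102 TPM (log2 difference 6.08, SE 0.22, adjusted p = 2.21e-08), and Fcer1g, a second signalling adaptor, from 2.97 ± 0.396 to 134 ± 62.2 TPM. Klrg1, the inhibitory receptor that marks late effector cells, rose from 0.244, 0.346 and 0.204 to 49.9, 92.5 and 56.9 TPM (log2 difference 5.69, SE 0.20, adjusted p = 2.19e-08), beside 442 ± 76.8 TPM with OVA alone. Klrc1, which encodes the inhibitory receptor NKG2A, rose from 81.2 ± 13.3 to 288 ± 37.2 TPM and the NKG2D gene Klrk1 from 39.3 ± 1.11 to 129.9 ± 19.2 TPM. Moving the other way, Cd226, a costimulatory receptor that competes with TIGIT for ligands, fell from 61.9 ± 5.89 to 23.2 ± 3.64 TPM, and Hcst, the DAP10 adaptor of NKG2D, from 64.3 ± 10.3 to 24.8 ± 5.58 TPM. Klra genes have near-identical copies and their reads are uncertain. Tyrobp, Fcer1g and Spp1 are also genes of myeloid cells; 13 of 21 myeloid and dendritic markers were above 0 in any library, their sum was 14.7 to 18.4 TPM in control and 20.0 to 28.7 TPM with OVA plus citraconate, and 8, among them C1qa, Fcgr1, S100a8 and S100a9, were at 0 in all 6 libraries. Of the 4 tested, Cd14 rose from 0, 0.623 and 0.459 to 3.18, 4.18 and 3.34 TPM, Cd68 rose from 8.11, 6.36 and 4.02 to 14.2, 17.7 and 10.7 TPM, Itgax fell from 6.96 ± 0.805 to 4.005 ± 0.857 TPM and Xcr1 was not called; the part of myeloid cells in these rises was not tested. Beside these results, 11 of 13 tested natural killer markers rose and the summed level of that marker list was 1519.9 to 2347 TPM in control and 4233 to 7311 TPM with OVA plus citraconate; Klrb1c (NK1.1) stood at 13.9, 21.8 and 12.3 TPM and Ncr1 at 3.57, 5.04 and 3.62 TPM in the treated libraries, and Ncr1 was listed at 0 in control. Of that list Gzma, Prf1, Eomes and several receptors are also made by CD8+ T cells. The part of natural killer cells in these rises was not tested.

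Stem-like and memory genes did not move as a block. Of 20 tested transcription factors 7 were higher, 10 lower and 3 did not pass (median -0.34). Of 20 surface and survival genes 7 were higher, 11 lower and 2 did not pass (median -0.73). Among all genes tested 33.4% were higher and 26.8% lower. In both lists the higher share was near that of all genes, and the lower share was above it. Tcf7, which encodes TCF-1, the factor most tied to stem-like CD8+ T cells, was at 82.8, 47.3 and 52.99 TPM in control and 75.2, 32.6 and 73.9 TPM with OVA plus citraconate. The groups overlapped, and the difference did not pass (log2 difference -0.062, SE 0.41, adjusted p = 0.903), with a 95% interval of -0.97 to 0.85 for the log2 difference. Without OVA plus citraconate replicate 2, the lowest of its group, the log2 difference was 0.33. With OVA alone Tcf7 was at 2.51, 1.37 and 5.84 TPM. Id3, an inhibitor of E proteins kept in memory cells, was at 33.4, 26.8 and 25.5 TPM in control and 27.9, 16.1 and 25.6 TPM with treatment and did not pass either (adjusted p = 0.365, 95% interval -0.96 to 0.33), beside 2.16 ± 1.36 TPM with OVA alone.

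Homing genes that memory cells use split in direction. Ccr7, the receptor that brings T cells into lymph nodes, rose from 59.1, 33.3 and 39.5 to 205, 117 and 207 TPM (log2 difference 1.97, SE 0.39, adjusted p = 0.00143), while OVA alone stood at 43.9 ± 22.1 TPM. S1pr1, the sphingosine phosphate receptor by which T cells leave lymph nodes, fell from 94.5, 80.4 and 87.3 to 8.31, 3.76 and 9.49 TPM (log2 difference -3.51, SE 0.35, adjusted p = 1.63e-05). Klf2, the factor that keeps S1pr1 on, fell from 142, 128 and 158 to 82.9, 61.9 and 66.6 TPM (log2 difference -1.01, SE 0.11, adjusted p = 2.45e-05). Il7r, the IL-7 receptor subunit that sustains memory cells, fell from 85.2, 80.3 and 79.1 to 32.02, 31.1 and 37.1 TPM (log2 difference -1.27, SE 0.22, adjusted p = 0.000659), and Bcl2, the survival gene downstream of that receptor, from 125 ± 5.24 to 49.5 ± 3.75 TPM. For Klf2, Il7r and S1pr1 OVA alone was lower again, at 19.3 ± 0.812, 18.8 ± 7.06 and 1.53 ± 1.15 TPM.

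Other factors of the list also went both ways. Lef1, the partner of TCF-1, fell from 44.5 ± 0.679 to 29.1 ± 2.37 TPM, and Bcl11b, which guards T cell identity, from 37.6 ± 3.31 to 13.3 ± 1.58 TPM. Satb1, a chromatin organiser, fell from 81.3 ± 5.93 to 44.7 ± 3.44 TPM, and Ets1 from 157 ± 7.35 to 80.95 ± 10.3 TPM. In contrast, Bach2, a repressor of effector genes, rose from 9.805 ± 0.591 to 24.8 ± 2.73 TPM, Foxp1, a quiescence factor, from 16.9 ± 0.685 to 35.3 ± 0.0848 TPM, and Myb, needed for stem-like exhausted cells, from 22.8 ± 4.19 to 43 ± 6.75 TPM. Bcl6 rose at low level, from 0.488 ± 0.07295 to 2.26 ± 0.228 TPM. On the surface, Slamf6, a marker of stem-like exhausted cells, fell from 8.94, 6.78 and 6.95 to 1.83, 1.21 and 1.93 TPM, Cxcr3, which guides effector and memory cells to inflamed tissue, from 63.01 ± 4.52 to 5.81 ± 0.827 TPM, and Ly6c2 from 251 ± 28.01 to 44.1 ± 3.27 TPM.

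**Figure D3:**
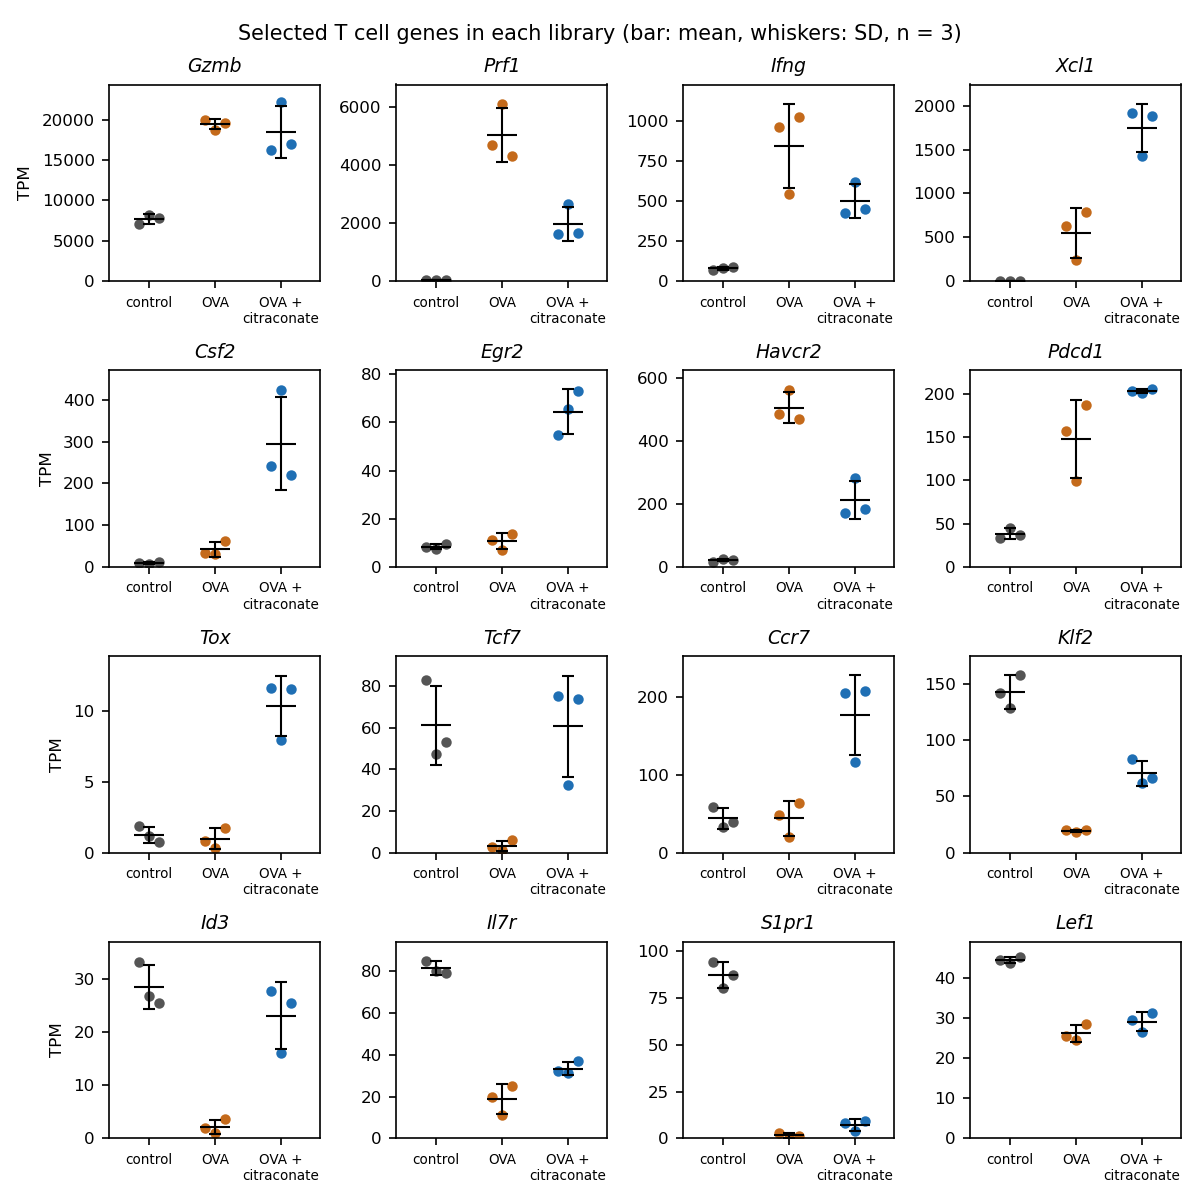
TPM (y axis, linear, each panel from 0) of 16 genes in every control, OVA and OVA plus citraconate library, with the mean and SD of each group of 3. Tcf7 and Id3 lie near their control levels with OVA plus citraconate, Il7r, S1pr1, Klf2 and Lef1 lie below them, and Ccr7, Tox, Egr2, Csf2 and Xcl1 lie above both other groups.

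Genes of inhibitory receptors and exhaustion were higher in 17 of 25 tested members, lower in 3, and 5 did not pass (median 1.05). Pdcd1, which encodes PD-1, rose from 33.04, 45.3 and 36.4 to 203, 201 and 206 TPM (log2 difference 2.39, SE 0.20, adjusted p = 4.24e-06). Havcr2, which encodes TIM-3, rose from 16.6, 23.4 and 22.5 to 171, 282 and 183 TPM (log2 difference 3.26, SE 0.18, adjusted p = 3.51e-07), with replicate 2 the highest. Tox, the factor that fixes the exhausted state, rose from 1.86, 1.16 and 0.759 to 11.6, 7.93 and 11.5 TPM (log2 difference 2.34, SE 0.27, adjusted p = 4.35e-05) and was at 0.825, 0.349 and 1.77 TPM with OVA alone. Tigit rose from 119 ± 0.659 to 474 ± 24.5 TPM, Lag3 from 225 ± 16.3 to 467 ± 17.4 TPM, and the PD-L2 gene Pdcd1lg2 from 4.34 ± 0.715 to 47.2 ± 7.58 TPM. Nr4a2 and Nr4a3, nuclear receptors induced by T cell receptor signals, rose from 7.495 ± 0.159 to 59.2 ± 5.97 TPM and from 1.95 ± 0.152 to 44.4 ± 7.49 TPM. Their relative Nr4a1 did not pass (111 ± 21.7 and 77.4 ± 16.1 TPM, adjusted p = 0.208), nor did Ctla4 (248 ± 6.37 and 273 ± 12.3 TPM, adjusted p = 0.511). The members that fell were Ctla2a (496 ± 12.4 to 180.1 ± 32.98 TPM), Ctla2b and Vsir, the gene of the checkpoint receptor VISTA.

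In the list of effector transcription factors 10 of 19 rose (52.6%) and 5 fell (26.3%), with a median of 0.58, beside 33.4% and 26.8% of all genes tested. Eomes, a T-box factor of effector and memory CD8+ cells, rose from 3.202, 3.54 and 3.299 to 74.8, 101 and 72.8 TPM (log2 difference 4.25, SE 0.16, adjusted p = 3.58e-08). Tbx21, which encodes the related T-BET, fell from 33.7, 31.5 and 38.9 to 26.5, 23.9 and 23.8 TPM (log2 difference -0.47, SE 0.11, adjusted p = 0.0052). Prdm1, which encodes the terminal differentiation factor BLIMP-1, rose from 19.3 ± 0.966 to 42.5 ± 9.77 TPM, Bhlhe40 from 531 ± 10.4 to 974 ± 27.2 TPM and Hic1 from 1.86 ± 0.425 to 11.9 ± 1.47 TPM. Hopx, a marker of lasting effector cells, fell from 195 ± 10.03 to 111 ± 13.1 TPM.

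Genes of the T cell receptor complex moved both ways around a median near 0. Of its 16 genes 5 rose (31.2%) and 5 fell (31.2%), 6 were not called, and the median was -0.075. These shares were near the 33.4% higher and 26.8% lower of all genes tested. Cd3e, an invariant chain of the receptor, was at 1383, 1428 and 1403 TPM in control and 1305, 1187 and 1351 TPM with OVA plus citraconate (adjusted p = 0.47, 95% interval -0.48 to 0.21 on the log2 scale), whereas OVA alone had 513 ± 136 TPM. The coreceptor genes moved apart: Cd8a rose from 217 ± 6.15 to 325 ± 38.7 TPM, and Cd8b1 fell from 601 ± 14.7 to 347 ± 31.4 TPM. Cd28, the main costimulatory receptor, rose from 55.1 ± 4.04 to 108 ± 4.51 TPM, and Cd2 fell from 471 ± 21.9 to 258 ± 14.6 TPM.

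Kinases and adaptors just below the receptor fell more often than they rose, 15 lower (44.1%) and 9 higher (26.5%) of 34 tested, with a median of -0.10. Over all genes tested 26.8% were lower and 33.4% higher. Themis, a regulator of receptor signalling in T cells, fell from 148 ± 5.81 to 32.95 ± 2.65 TPM. Grap2, the GADS adaptor, fell from 152 ± 3.504 to 36.1 ± 0.857 TPM, Plcg1, the phospholipase that opens the calcium and RAS branches, from 69.5 ± 2.79 to 20.9 ± 4.47 TPM, and Prkcq, the kinase that leads to NF-kB, from 104 ± 3.59 to 44.6 ± 2.32 TPM. Of those that rose, Cblb and Ubash3b restrain the receptor: Cblb, a ubiquitin ligase, went from 47.6 ± 4.14 to 120.5 ± 9.21 TPM and Ubash3b, a phosphatase, from 9.99 ± 0.599 to 42.9 ± 3.62 TPM. The kinase genes Lck and Zap70 did not pass, at 546 and 216 TPM beside 646 and 224 TPM in control.

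The early response genes downstream were higher in 26 of 43 tested members and lower in 5 (median 0.41). Egr2, a zinc finger factor induced by calcium signals, was at 8.04, 7.35 and 9.43 TPM in control, 54.6, 65.7 and 72.99 TPM with OVA plus citraconate and 11.3, 7.12 and 13.7 TPM with OVA alone (log2 difference 2.82, SE 0.20, adjusted p = 1.47e-06 against control). Its relative Egr3 rose from 5.24 ± 0.55 to 24.6 ± 4.41 TPM, and Egr1 did not pass (246 ± 25.7 and 236 ± 52.3 TPM). Of the NF-kB family Rel rose from 11.3 ± 1.58 to 48.3 ± 1.6 TPM, Nfkb2 from 50.7 ± 2.62 to 175 ± 12.2 TPM and Relb from 10.4 ± 0.707 to 26.8 ± 2.07 TPM. The feedback inhibitors of the MAP kinase branch rose too, with Spry2 going from 16.9 ± 2.19 to 93.4 ± 5.62 TPM and Dusp4 from 49.2 ± 5.498 to 143 ± 10.5 TPM. Fos and Fosb were lower, Fos going from 79.2 ± 7.76 to 42.8 ± 7.704 TPM, and Nfatc2, the factor that calcium brings to the nucleus, fell from 31.4 ± 3.32 to 15.02 ± 0.869 TPM. Myc, which drives growth after activation, was at 652, 645 and 658 TPM in control and 558, 534 and 552 TPM with treatment; the groups did not overlap and the difference missed the threshold (adjusted p = 0.065), which it passed under 6 of the 20 alternative settings.

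Costimulatory receptors of the TNF receptor family and their relatives had 9 higher (40.9%) and 5 lower (22.7%) of 22 tested (median 0.095). The shares over all genes tested were 33.4% and 26.8%. Tnfrsf9, which encodes 4-1BB, rose from 336, 298 and 290.4 to 1322, 1529.7 and 1349 TPM, and Tnfrsf4, which encodes OX40, from 92.9, 79.9 and 74.5 to 313, 288 and 308 TPM. With OVA alone Tnfrsf9 was at 1438 ± 154 TPM and Tnfrsf4 at 95.3 ± 45.8 TPM. Cd70 rose from 0.0684 ± 0.118 to 10.3 ± 2.24 TPM. Cd40lg, the helper ligand for dendritic and B cells, fell from 25.6 ± 3.48 to 1.87 ± 0.123 TPM, and the death receptor gene Fas from 15.7 ± 0.872 to 7.67 ± 0.942 TPM.

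Cytokine receptor and STAT genes split, with 14 higher (34.1%) and 18 lower (43.9%) of 41, and a median of -0.18. All genes tested had 33.4% higher and 26.8% lower. The IL-2 receptor was higher at all 3 chains: Il2ra went from 309.5 ± 39.7 to 592 ± 108 TPM, Il2rb from 897 ± 22.7 to 1343 ± 109 TPM and Il2rg from 495 ± 2.93 to 716 ± 32.5 TPM. Stat3 rose from 43.7 ± 3.22 to 156 ± 3.12 TPM and Il21r, whose signals pass through STAT3, from 118 ± 3.02 to 266 ± 19.9 TPM. Smad3, a mediator of TGF-beta signals, fell from 16.8 ± 1.57 to 3.26 ± 0.2902 TPM, the TGF-beta receptor gene Tgfbr1 from 6.18 ± 0.9796 to 1.97 ± 0.0997 TPM, and Il18r1 from 120.0 ± 5.16 to 47.1 ± 6.67 TPM. Ifngr1, the ligand-binding chain of the interferon gamma receptor, fell from 457 ± 16.2 to 233 ± 27.2 TPM.

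Homing and adhesion genes were lower in 16 and higher in 8 of 32 tested members (median -0.24). Itgb7, the integrin chain that guides T cells to the gut, fell from 961, 898 and 907 to 117, 66.2 and 109 TPM (log2 difference -3.27, SE 0.18, adjusted p = 3.55e-07). Cxcr4, the CXCL12 receptor, fell from 109 ± 10.2 to 22.4 ± 4.58 TPM, and Ccr2 from 109 ± 12.5 to 22.6 ± 4.41 TPM. Itgb3 rose from 34.04 ± 2.19 to 87.2 ± 4.24 TPM. Itga1, an integrin of tissue-resident cells, did not pass (2 ± 0.479 and 2.32 ± 1.16 TPM), whereas OVA alone had 34.1 ± 8.904 TPM.

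Cell cycle genes were lower. Of 44 mitosis genes 35 fell, 0 rose and 9 did not pass (median -0.49); of 46 replication genes 24 fell, 1 rose and 21 did not pass (median -0.35).  Mki67 was at 332, 309.7 and 255 TPM in control and 222, 186 and 196 TPM with OVA plus citraconate (log2 difference -0.56, SE 0.14, adjusted p = 0.00471), beside 108 ± 19.4 TPM with OVA alone. Ccnb2, a mitotic cyclin, fell from 298 ± 16.1 to 163 ± 18.9 TPM and Anln, which acts in the dividing furrow, from 15.8 ± 2.55 to 6.99 ± 0.405 TPM. E2f2, an activator of S phase genes, fell from 97.02 ± 4.21 to 33.6 ± 5.43 TPM and Cdt1, which licenses replication origins, from 99.2 ± 6.88 to 44.4 ± 7.05 TPM. The replication gene that rose was Ccne1, the cyclin of S phase entry (43.7 ± 2.88 to 55.4 ± 0.872 TPM). Genes that hold the cycle back included Btg1, which rose from 115 ± 14.2 to 270.5 ± 14.5 TPM, and Cdkn1a (p21), from 152 ± 3.59 to 200.2 ± 34.4 TPM, while Cdkn1b (p27) fell from 35.3 ± 1.09 to 21.7 ± 3.75 TPM.

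In the BCL2 and caspase list 15 of 31 genes rose (48.4%) and 6 fell (19.4%), with a median of 0.21. Over all genes tested these shares were 33.4% and 26.8%. The survival genes Bcl2a1d and Bcl2a1b, which are near-identical copies with uncertain reads, rose from 10.2 ± 1.55 to 189 ± 3.61 TPM and from 30.1 ± 2.17 to 264 ± 20.3 TPM. Bcl2l11, which encodes the killer protein BIM, was at 7.08, 6.04 and 7.08 TPM in control, 45.3, 36.9 and 43.6 TPM with OVA plus citraconate and 6.71, 5.23 and 7.67 TPM with OVA alone. Ripk3, the kinase of necroptosis, fell from 83.3 ± 4.399 to 28.1 ± 0.778 TPM. Of 25 p53 targets 9 rose and 5 fell (median 0.076), shares near those of all genes. Perp, the p53 target with the largest rise, went from 4.51 ± 1.603 to 42.3 ± 10.2 TPM, and Trp53 itself did not pass (101 ± 4.22 and 96.5 ± 3.403 TPM).

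**Figure D4:**
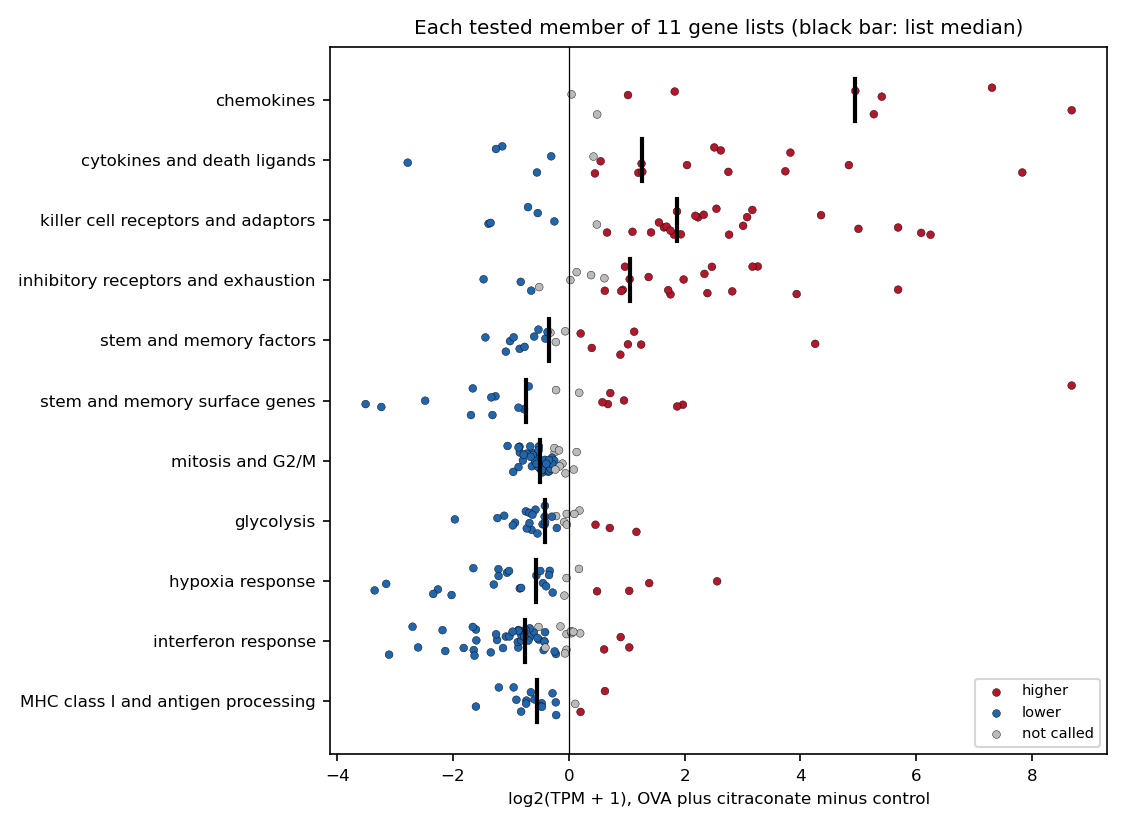
Log2 difference, OVA plus citraconate minus control on log2(TPM + 1) (x axis), of every tested member of 11 gene lists, coloured by its call, with the list median as a black bar. Chemokines, cytokines, killer receptors and inhibitory receptors spread to the right, mitosis, glycolysis, hypoxia, interferon and MHC class I genes lie mostly left of 0, and both stem and memory lists spread to both sides.

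Glycolysis and the genes of the hypoxia response were lower together. Of 29 glycolysis genes 20 fell, 3 rose and 6 did not pass (median -0.42), and of 27 hypoxia genes 20 fell, 4 rose and 3 did not pass (median -0.56). Aldoc, an aldolase, was at 168, 162 and 168 TPM in control and 52.6, 36.4 and 37.6 TPM with OVA plus citraconate. The high-level enzymes fell less: Aldoa from 2549.5 ± 58.8 to 1306 ± 83.7 TPM, and Pgk1 from 3197 ± 34.97 to 1940.5 ± 225 TPM. Pdk1, which keeps pyruvate out of mitochondria, fell from 69.9 ± 10.2 to 29.1 ± 3.93 TPM. Ldhb, the lactate dehydrogenase chain that favours lactate use, rose from 12.3 ± 1.78 to 28.9 ± 2.597 TPM. Among targets of the hypoxia factor HIF-1, Egln3, an oxygen-sensing prolyl hydroxylase, fell from 286, 265 and 264 to 76.9, 59.1 and 63.1 TPM (log2 difference -2.02, SE 0.14, adjusted p = 1.38e-06) and Ndrg1 from 142 ± 5.23 to 27.8 ± 8.29 TPM. Pygl, which breaks down glycogen, fell from 97.5, 93.5 and 102 to 14.4, 8.63 and 8.16 TPM (log2 difference -3.15, SE 0.18, adjusted p = 4.62e-07), and Selenbp1 from 63.1 ± 10.04 to 5.51 ± 2.15 TPM. The gene of HIF-1 alpha itself, Hif1a, went up from 163 ± 18.3 to 228 ± 14.8 TPM, and its relative Epas1 from 3.56 ± 0.462 to 27.4 ± 12.5 TPM.

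TCA cycle genes and genes of the mitochondrial genome leaned the other way, with small differences, and nuclear genes of the respiratory chain rose at a rate near that of all genes. In the TCA cycle list 19 of 35 rose and 5 fell (median 0.16). Dlat, a subunit of pyruvate dehydrogenase, rose from 24 ± 0.989 to 44.1 ± 1.97 TPM, and Mdh2, a malate dehydrogenase, from 299 ± 6.897 to 419 ± 9.67 TPM. Idh2, the mitochondrial isocitrate dehydrogenase that uses NADP, fell from 42.3 ± 2.895 to 18.8 ± 3.21 TPM. Of 67 nuclear genes of the respiratory chain 24 rose, 5 fell and 38 did not pass (35.8% higher beside 33.4% of all genes tested, median 0.080). Of 13 genes of the mitochondrial genome 9 rose and 0 fell (median 0.41), though 7 of these rises missed the threshold under at least 1 alternative setting, and 6 of them without OVA plus citraconate replicate 2. The largest, mt-Cytb, went from 4026, 4210.0 and 4040.1 to 6479, 9295 and 8189.7 TPM (log2 difference 0.95, SE 0.17, adjusted p = 0.000778). Together they took 7.29 to 7.76% of transcripts in control and 8.82 to 10.7% with OVA plus citraconate (exact permutation p = 0.1, the smallest possible).

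Genes tied to itaconate and its isomers showed no common direction, 9 higher (45.0%) and 4 lower (20.0%) of 20 tested. Beside them, 33.4% of all genes tested were higher and 26.8% lower. Acod1, the enzyme that makes itaconate, was listed at 0 in all 6 libraries. Clybl, which clears citramalyl-CoA, a product of itaconate breakdown, fell from 77.3, 87.9 and 73.5 to 37.6, 24.2 and 26.7 TPM (log2 difference -1.42, SE 0.16, adjusted p = 4.04e-05). Atf3, a stress factor that itaconate derivatives are known to induce, rose from 46.6 ± 1.98 to 125 ± 20.3 TPM, and Nlrp3, the inflammasome sensor, fell from 14 ± 2.96 to 3.02 ± 1.02 TPM. Nfe2l2 and Keap1, which encode the stress factor NRF2 and its sensor, did not pass (7.08 and 46.9 TPM beside 7.84 and 51.2 TPM in control).

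NRF2 targets and other glutathione and thioredoxin genes went both ways, 20 lower (43.5%) and 14 higher (30.4%) of 46 tested, with a median of -0.097. Among all genes tested 26.8% were lower and 33.4% higher, so the higher share was near that of all genes. Srxn1, which restores peroxiredoxins, rose from 6.19, 5.44 and 4.96 to 14.5, 22.8 and 15.5 TPM (log2 difference 1.49, SE 0.15, adjusted p = 1.99e-05). Akr1b8, an aldose reductase, rose from 0.949 ± 0.263 to 13 ± 2.37 TPM, and Hmox1, heme oxygenase, from 14.9 ± 1.86 to 25.4 ± 5.28 TPM beside 109 ± 21.9 TPM with OVA alone. On the falling side Gclm, a subunit of the enzyme that starts glutathione synthesis, went from 14.3, 14.1 and 14.5 to 8.997, 6.24 and 8.38 TPM (log2 difference -0.80, SE 0.12, adjusted p = 0.000262), Prdx4 from 73.8 ± 5.67 to 20.3 ± 5.13 TPM and Mgst2 from 50.3 ± 3.37 to 5.21 ± 1.11 TPM. Nqo1, a classical NRF2 target, stood at 1.45, 1.89 and 1.02 TPM in control and 2.36, 1.302 and 1.99 TPM with treatment and did not pass. The core of the antioxidant element that NRF2 binds, TGACNNNGC on either strand, was found in the promoter windows of 5 of 13 risen members with a window, 3 of 17 fallen and 4 of 10 not called, beside 12.4% of all 32851 windows in the RefSeq table and 17.1% of the 8745 tested genes with a window. The share of the fallen members was close to that of the tested genes. In iron and heme metabolism 11 of 23 genes rose (47.8%) and 4 fell (17.4%), beside 33.4% and 26.8% of all genes tested. Tfrc, the transferrin receptor, went from 88.9 ± 4.03 to 235 ± 23.5 TPM.

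The integrated stress response is driven by the factor ATF4, which raises amino acid transporters, synthetases and enzymes. In its list 23 of 42 genes rose, 9 fell and 10 did not pass (median 0.27). Members that rose included Chac1, which degrades glutathione (2.56 ± 0.861 to 6.14 ± 1.201 TPM), the neutral amino acid transporter gene Slc1a4 (3.75 ± 0.496 to 7.896 ± 1.64 TPM) and the stress factor gene Atf5 (8.41 ± 0.406 to 14.6 ± 3.29 TPM). Others of the same pathway fell: Trib3, a feedback inhibitor of ATF4, from 29.5, 24.4 and 28.04 to 7.52, 11.4 and 8.08 TPM (log2 difference -1.52, SE 0.16, adjusted p = 2e-05), Ddit3, which encodes CHOP, from 19.3 ± 2.01 to 14.5 ± 1.06 TPM, and Stc2 from 23.4 ± 1.24 to 4.32 ± 0.905 TPM. Atf4 itself did not pass (453 ± 4.99 and 423 ± 12.4 TPM), except under 2 alternative settings, where it was lower. Trib3 and Chac1 are set beside each other because both carry the same element and moved in opposite directions. The composite element bound by C/EBP and ATF proteins, TGATGNAA on either strand, lay in the promoter windows of 8 of 17 risen members with a window, 2 of 7 fallen and 1 of 6 not called, in 3.97% of all windows and in 2.62% of tested genes with a window. The windows below are from RefSeq (GRCm38.p6), 250 bases before to 50 after the start, 5′ to 3′ on the gene's strand, with the element in capitals.
Chac1, chr2:119350992-119351291, plus strand: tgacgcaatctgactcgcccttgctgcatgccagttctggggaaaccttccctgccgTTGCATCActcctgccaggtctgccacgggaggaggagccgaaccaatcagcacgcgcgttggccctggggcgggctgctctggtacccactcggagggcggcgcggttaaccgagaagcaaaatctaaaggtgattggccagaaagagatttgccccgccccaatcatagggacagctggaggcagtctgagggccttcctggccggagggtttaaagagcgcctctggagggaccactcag
Trib3, chr2:152344011-152344310, minus strand: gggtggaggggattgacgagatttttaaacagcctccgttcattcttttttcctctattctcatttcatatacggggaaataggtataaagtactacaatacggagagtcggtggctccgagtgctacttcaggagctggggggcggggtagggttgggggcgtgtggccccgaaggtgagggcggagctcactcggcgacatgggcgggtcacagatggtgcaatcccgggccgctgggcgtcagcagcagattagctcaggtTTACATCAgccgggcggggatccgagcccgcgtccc
A match describes these letters only, and in neither window did it overlap a match of the other 3 motifs searched.

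Enzymes of serine, asparagine, proline and cysteine synthesis rose in 14 of 23 cases and fell in 4 (median 0.19). Cth, which makes cysteine from cystathionine, rose from 0.3096, 0.292 and 0 to 8.17, 8.76 and 9.09 TPM (log2 difference 3.02, SE 0.12, adjusted p = 4.24e-08). Mthfd2, of the mitochondrial folate cycle, rose from 60.4 ± 1.401 to 113 ± 7.68 TPM, and Asns, asparagine synthetase, from 54.99 ± 2.81 to 76.6 ± 5.73 TPM beside 223 ± 20.4 TPM with OVA alone. Ass1, which makes argininosuccinate on the way to arginine, fell from 238 ± 14.7 to 64.3 ± 4.95 TPM. Endoplasmic reticulum stress genes had 14 higher and 3 lower of 28 (median 0.13), with the chaperone gene Hyou1 going from 48.9 ± 1.43 to 75.8 ± 5.75 TPM. Heat shock genes were more uniform, 20 higher and 1 lower of 27 (median 0.32). Hspd1, the mitochondrial chaperone HSP60, rose from 342 ± 13.7 to 508 ± 35.4 TPM. The member that fell was Dnajb1 (77.3 ± 1.1 to 50.8 ± 5.6 TPM).

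Lipid genes moved little as lists. In cholesterol synthesis 10 of 26 rose (38.5%) and 5 fell (19.2%), with a median of 0.077. In fatty acid synthesis and oxidation 15 of 39 rose (38.5%) and 11 fell (28.2%), with a median of 0.10. Among all genes tested 33.4% rose and 26.8% fell. Msmo1, a sterol oxidase, rose from 12.5 ± 0.783 to 25.1 ± 0.9101 TPM. Plin2, which coats lipid droplets, rose from 14.7 ± 1.08 to 33.7 ± 4.15 TPM, while Plin3 fell from 85.4 ± 6.32 to 32.1 ± 4.06 TPM and Pparg from 8.53 ± 1.43 to 1.82 ± 0.798 TPM.

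Interferon-stimulated genes were lower: 38 of 52 tested members fell, 3 rose and 11 were not called (median -0.76). Type I interferon signals reach these genes through STAT proteins and IRF9, which bind a response element in their promoters. Oas3, which makes the messenger that activates RNase L, fell from 53.6, 48.6 and 45.1 to 5.57, 3.97 and 5.03 TPM (log2 difference -3.10, SE 0.25, adjusted p = 3.49e-06). Igtp, an interferon-induced GTPase, fell from 267, 224 and 227 to 81.7, 70.9 and 81.4 TPM (log2 difference -1.60, SE 0.11, adjusted p = 1.26e-06), and Irf7, which amplifies the response, from 11.3 ± 0.7399 to 4.89 ± 1.15 TPM. Of the transducers, Stat2 fell from 15.2 ± 1.02 to 6.399 ± 0.512 TPM and Irf9 from 14.04 ± 2.31 to 7.96 ± 1.12 TPM. The 3 members that rose were Slfn2 (92.7 ± 11.4 to 191 ± 8.97 TPM), the RNA sensor gene Ifih1 (3.03 ± 0.2799 to 6.49 ± 0.195 TPM) and Slfn5, in a family of similar copies where reads are uncertain. Isg15, a ubiquitin-like protein and a classical member, stood at 5.03, 6.04 and 7.83 TPM in control and 7.05, 6.24 and 4.91 TPM with treatment, with groups that overlapped (95% interval of the log2 difference -0.50 to 0.41). Ifng rose over the same comparison, as given above. The response element GAAANNGAAA, on either strand, was found in the promoter windows of 16 of 25 fallen members with a window, 2 of 3 risen and 5 of 7 not called, beside 3.44% of all windows and 3.84% of tested genes with a window. The fallen Oas3 and Igtp are shown beside Isg15, which carries 3 overlapping matches and did not pass. The windows are again from RefSeq (GRCm38.p6), with the element in capitals.
Oas3, chr5:120777610-120777909, minus strand: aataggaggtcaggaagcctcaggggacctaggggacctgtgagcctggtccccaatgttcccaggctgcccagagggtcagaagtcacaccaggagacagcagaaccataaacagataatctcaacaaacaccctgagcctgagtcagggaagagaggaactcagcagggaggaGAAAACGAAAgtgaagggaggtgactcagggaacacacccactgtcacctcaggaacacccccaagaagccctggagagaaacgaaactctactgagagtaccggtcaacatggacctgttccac
Igtp, chr11:58199306-58199605, plus strand: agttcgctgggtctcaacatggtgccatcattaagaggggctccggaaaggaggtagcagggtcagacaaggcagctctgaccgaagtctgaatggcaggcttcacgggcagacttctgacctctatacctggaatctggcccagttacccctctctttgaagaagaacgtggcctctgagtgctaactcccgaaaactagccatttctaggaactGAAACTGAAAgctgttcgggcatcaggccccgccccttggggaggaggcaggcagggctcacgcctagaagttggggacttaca
Isg15, chr4:156200769-156201068, minus strand: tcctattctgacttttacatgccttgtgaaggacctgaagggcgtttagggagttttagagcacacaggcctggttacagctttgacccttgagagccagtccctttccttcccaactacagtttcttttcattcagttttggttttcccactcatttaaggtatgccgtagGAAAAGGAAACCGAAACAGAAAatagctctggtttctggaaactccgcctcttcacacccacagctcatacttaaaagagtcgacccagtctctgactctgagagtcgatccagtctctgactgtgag
None of these matches overlapped a match of the other motifs.

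Antigen presentation genes fell with them. In the MHC class I list 15 of 18 tested genes were lower and 2 higher (median -0.54). B2m, the shared light chain, fell from 8005, 7705 and 7513 to 4836, 4489.7 and 4616 TPM (log2 difference -0.74, SE 0.052, adjusted p = 1.6e-06). H2-Q7, a class Ib chain, fell from 686 ± 29.6 to 226 ± 25.4 TPM, and Nlrc5, the activator of class I genes, from 56.1 ± 2.85 to 29.6 ± 3.13 TPM. H2-T23, the Qa-1 chain that NKG2A reads, rose from 149.9 ± 2.69 to 232 ± 4.17 TPM. Of 9 class II genes 7 fell: H2-Ab1 went from 147 ± 11.8 to 72.04 ± 17.1 TPM and H2-Oa from 60.4 ± 2.15 to 8.22 ± 1.06 TPM. The invariant chain gene Cd74 rose, from 16.3 ± 6.59 to 65.7 ± 5.02 TPM. Reads of H2 genes are uncertain because of their similar copies. Beside the class II result, the summed level of 13 B cell markers was 227 to 262 TPM in control and 57.7 to 90.2 TPM with OVA plus citraconate, 5 of the 6 tested were lower, and Cd79b went from 11.9 ± 2.02 to 0.234 ± 0.203 TPM. Ms4a1 was at 0 in all 3 treated libraries and under 1 TPM in control. The part of B cells in the class II values was not tested.

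Ribosomal protein genes were lower in 48 and higher in 3 of 81 (median -0.21), and took 18.8 to 19.6% of transcripts in control and 15.7 to 17.3% with OVA plus citraconate (exact permutation p = 0.1, the smallest possible). Genes that build ribosomes went the other way, 23 of 40 higher and 3 lower (median 0.19). Ddx10, a helicase of ribosome assembly, rose from 73.1 ± 2.69 to 151 ± 9.17 TPM, while Fbl, which methylates ribosomal RNA, fell from 251 ± 7.46 to 210.0 ± 3.297 TPM. In the list of 2-oxoglutarate dioxygenases and chromatin enzymes 14 of 28 fell and 8 rose (median -0.19). Dnmt3a, the DNA methyltransferase that silences naive and memory genes in effector cells, rose from 10.7, 9.75 and 8.53 to 31.9, 35.9 and 33.3 TPM (log2 difference 1.71, SE 0.14, adjusted p = 5.13e-06). Kdm3a, a histone demethylase that HIF-1 induces, fell from 97.3 ± 7.53 to 19.6 ± 2.05 TPM, and Tet2, which oxidises methylated DNA, from 8.88 ± 1.62 to 5.88 ± 0.292 TPM.

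**Figure D5:**
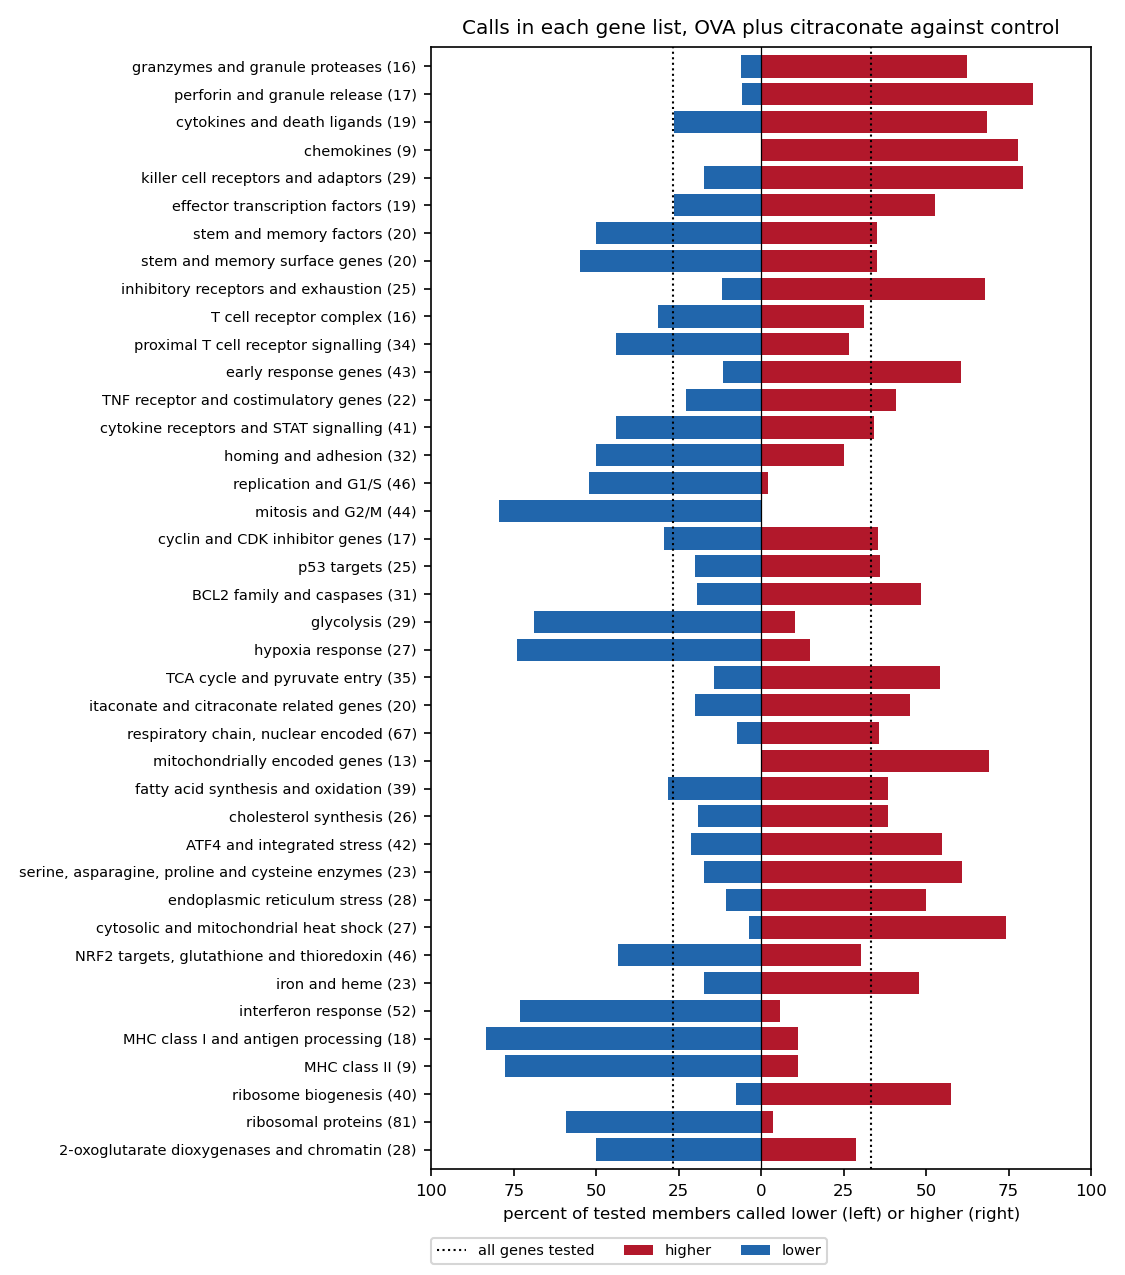
For 40 gene lists, the percent of tested members (number in brackets) called higher (right, red) or lower (left, blue) with OVA plus citraconate against control; dotted lines mark the 33.4% and 26.8% of all genes tested. Granule release, chemokine, killer receptor and heat shock lists pass the right line by the most, and mitosis, MHC, hypoxia, interferon and glycolysis lists the left one.

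Some genes with OVA plus citraconate stood outside the range of both other groups, past the test against each: 1910 genes were above both and 780 below both. Nrgn, which encodes the calmodulin-binding protein neurogranin, was at 12.8, 18.4 and 13.3 TPM in control, 235, 105 and 312 TPM with OVA and 1174, 915 and 1066 TPM with OVA plus citraconate. Akr1c18, a hydroxysteroid dehydrogenase gene, was listed at 0 in all 3 control libraries, at 6.09, 13.7 and 20 TPM with OVA and at 41.4, 91.2 and 37.7 TPM with both, where replicate 2 was the highest. Sdc1, the syndecan gene, was at 0.198 ± 0.0943, 10.5 ± 3.74 and 35.4 ± 4.04 TPM in the same order, and Ccdc184 at 1.24 ± 0.386, 32.6 ± 11.2 and 103 ± 18.8 TPM. The same rule named Penk, Xcl1, Igfbp7, Crtam, Ccl4 and Csf2 above both groups, and Endou and Igfbp4 below both.

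Other marker lists were low or shared with activated CD8+ cells. The 11 markers of CD4+ and regulatory T cells summed to 971 to 1079 TPM in control and 1500 to 1633 TPM with OVA plus citraconate, mostly from Il2ra, Ctla4, Tnfrsf4 and Tnfrsf18. Cd4 itself fell from 2.62 ± 0.428 to 1.02 ± 0.197 TPM, and Foxp3 was too low to test. Of 12 erythroid and platelet markers 7 were above 0, with sums of 9.17 to 10.4 and 12.1 to 15.01 TPM, and 5 were at 0, Ppbp and Alas2 among them. Of the 3 tested, Hbb-bt rose from 6.08 ± 0.608 to 11.2 ± 1.08 TPM, Gp1ba stood at 0.6598 ± 0.0744 and 1.08 ± 0.0241 TPM and Hba-a1 at 1.79 ± 1.41 and 0.0692 ± 0.1199 TPM; Gp1ba missed the threshold under 15 alternative settings, and Hba-a1 without OVA plus citraconate replicate 1 or 3. The 14 stromal and epithelial markers summed to 46.8 to 51.0 and 68.9 to 89.2 TPM, mostly from Pecam1, also made by T cells, and Epcam, which went from 2.14 ± 0.621 to 15.2 ± 1.74 TPM.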

How the data were processed

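RNA of CD8+ T cells was extracted with a column kit and sequenced on an Illumina NextSeq instrument, per the labels' protocols. Reads were trimmed with Trim Galore 0.5.0 and quantified with Salmon, with GRCm39 named as the build, per the submitters' processing notes. The deposited table holds 1 TPM value per gene and library: each column sums to 1000000, although the table is titled as another unit, so the authors' values were treated as TPM. Whole reads could be recovered for 16734 of the 16734 genes above 0 in at least 2 libraries (within 0.001 reads), which gave the depths.

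Genes whose mean reached 1 TPM in control or in OVA plus citraconate were fitted on log2(TPM + 1) with limma 3.58.1 in R 4.3.3 (a trend in the prior variance, all 9 libraries sharing 1 estimate of spread), and adjusted p-values are Benjamini-Hochberg values over the 11734 genes. Calls were made at an adjusted p below 0.05. The smallest exact permutation p for 3 against 3 libraries is 0.1. The analysis was tested on simulated data. Tables and figures were made with pandas 2.3.3, numpy 2.4.6 and matplotlib 3.10.9 in Python 3.11.15.

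The 47 gene lists had 1375 entries, of which 1370 were in the table, 12 under another symbol, and 1155 distinct genes were tested. The members and lists were chosen with earlier results of these data known. Named genes are the 12 largest called increases and decreases of at least 5 TPM without overlap, up to 8 called members per list with the largest differences and those against the list's majority, a panel of 20 T cell genes, and 12 genes beyond both other groups; some list members that did not pass, or with smaller differences, were named after their values were seen. Promoter windows are RefSeq's for GRCm38.p6, and their coordinates are not those of the build named for the counts; 8745 tested genes had one. Alternatives were other pseudocounts, filters, scalings, the replicate number as a block, each library left out, and, added after the data were seen, voom on the recovered reads. Some list members are not reported here.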

Additional observations from a re-analysis of the deposited data

How the results depend on the processing

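The count of genes at least 2-fold different is tied to the pseudocount: 746 with a pseudocount of 5, 2000 with 0.1 and 2029 with voom on the recovered reads, beside 1523 with 1. With each library left out in turn the genes called numbered 6313 to 7297, those higher 3451 to 4021, those lower 2774 to 3276, those at least 2-fold different 1491 to 1600, and those called against OVA 6032 to 6772. The share of calls that were higher was 55.5%, 50.8% after scaling by the median of ratios, 49.8% after quantile normalization and 59.3% with the granzymes left out. With the replicate number as a block 7081 genes were called. Control and OVA plus citraconate libraries of the same number had deviations from their group means that correlated at 0.0327, 0.107 and 0.0297. OVA plus citraconate replicate 1 correlated slightly better with control replicate 3 (0.0349). The replicates numbered 2 correlated at 0.0827 between control and OVA, and at 0.303 between OVA and OVA plus citraconate. With libraries of another number in another group, replicate 2 libraries correlated negatively, down to -0.255. Deviations from a group mean cancel out within the group, so the positive values force negative ones, which add nothing of their own. Whether libraries of the same number share a source or batch was not tested. Of 1171 gene values under 20 alternatives 929 kept their side of the threshold in all, 128 lost the call in at least 1 and 113 gained it. A change of direction was counted only where the main fit or the alternative called the gene. Genes called in neither could turn uncounted, as Tcf7 did without OVA plus citraconate replicate 2 (-0.062 to 0.33). Thy1 turned from a slightly negative log2 difference, not called, to 0.19 after quantile normalization, and the cause was not tested. Of 47 list medians 12 moved by at least 0.25 (log2) in at least 1 setting. Among genes named above that did not pass, Atf4, Ctla4, Gzma, Keap1, Lck, Myc and Nr4a1 passed under at least 1 alternative. Genes of a few TPM rest on few reads.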
